A study of Mus musculus with 12 samples.

Results

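Collagens are triple-helical extracellular matrix proteins, and the stromal cells of a lymph node lay them down as the reticular fibre network on which lymphocytes move. In these fibres a core of fibrillar collagens is wrapped by a sheath that holds basement membrane collagens, and the fibroblastic reticular cells cover both. Fibrillar chains build the load-bearing fibrils, basement membrane chains build sheet-like networks, beaded filament chains (type VI) link cells to fibrils, FACIT chains decorate fibril surfaces, multiplexins sit at basement membrane zones, and transmembrane collagens stay anchored in the cell membrane. The accessibility of the chromatin around 40 collagen genes was followed here, by collagen class, in stromal cells from gut-draining and skin-draining nodes. A peak, that is a region of open chromatin, was counted for a collagen gene when the nearest transcription start site (TSS) of any protein-coding gene on GRCm38 belonged to that gene. This rule found 210 of the 42424 distinct peaks, at 36 of the 40 genes. Col7a1, Col10a1, Col11a2 and Col20a1 had no peak of their own.

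The data are ATAC-seq libraries, in which a transposase cuts open chromatin, of CD45- CD24- CD31- Pdpn+ non-endothelial stromal cells sorted after a collagenase P digest from BALB/c mice. The nodes were mesenteric (mLN, draining small intestine and colon) or peripheral (pLN, draining skin), and the mice were kept germ-free (GF) or free of specific pathogens (SPF). There were 3 libraries of mLN-SPF, 3 of pLN-SPF, 3 of mLN-GF and 2 of pLN-GF. SPF mice were 7 to 12 weeks and GF mice 6 to 10 weeks old. GF mice descended from a separate colony, and BALB/c animals of the SPF facility are described as CD90.1, so that housing cannot be told apart from age range, colony and line. The tissue label of the pLN libraries reads skin-draining mesenteric, and they were taken as pLN from their titles. Since the labels do not say whether libraries came from separate animals, the p-values measure the spread between libraries, which may be technical. The study's reporting summary states, for bulk sequencing in general, that at least part of the replicates came from independent experiments. Levels are RPKM, that is reads scaled to library size and divided by peak length in kilobases, and the libraries held 2886129 to 10380493 reads in peaks. The first principal component of all peaks (51.5% of the variance) separated the nodes, and the libraries numbered 2 of both mLN groups lay nearest to pLN on it.

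The sorted cells were described by peaks over the TSSs of marker genes. None of 5 hematopoietic and none of 4 epithelial markers had such a peak. Of 6 blood endothelial markers Kdr and Tek had one, with summed levels of 51.6 to 68.1 RPKM in mLN-SPF and 49.8 to 56.1 in pLN-SPF, whereas the defining genes Pecam1 and Cdh5 had none. Of 3 lymphatic endothelial markers Prox1 had one, with 19.5 to 36.7 RPKM in mLN-SPF and 18.5 to 24.9 in pLN-SPF (25.6 to 29.5 and 20.5 to 31.9 in GF mice). Lyve1 and Flt4 had none. Of 7 mesenchymal markers, 3 (Pdgfrb, Ltbr and Cxcl12) had one, whereas Pdpn, Pdgfra, Ccl19 and Thy1 did not. As Pdpn, for which the cells were sorted, lacked one, a missing peak cannot show that a cell type was absent. In other lists the levels did not overlap between nodes in either housing, but the sums were not tested. The summed RPKM of CD34+ stroma markers (2 of 5 with a TSS peak) ran from 87.0 to 119 in mLN-SPF and from 61.6 to 78.0 in pLN-SPF (78.1 to 95.6 and 68.5 to 71.4 in GF mice). Of its members Cd34 was higher in mLN (66.4 ± 4.11 against 44.3 ± 4.70 RPKM in SPF mice, SD, n = 3, limma adjusted p = 0.0290), whereas Ackr3 had 54.6, 23.7 and 23 RPKM in mLN-SPF and 21.6, 21.8 and 28.7 in pLN-SPF (adjusted p = 0.460). Perivascular markers (3 of 5, Mcam and Cspg4 without) summed to 52.1 to 84.6 in mLN-SPF and 95.1 to 127 in pLN-SPF. In GF mice they summed to 74.9 to 92.5 and 143 to 150. None was called in SPF mice: the log2 differences were -0.73 for Acta2 (limma adjusted p = 0.0363), -0.61 for Myh11 (0.0670) and -0.60 for Rgs5 (0.285). The SPF groups overlapped at Rgs5. In GF mice the log2 differences were -0.62 (0.0967), -0.48 (0.192) and -1.78 (0.00961) in the same order. The mesothelial list had a TSS peak only at Wt1, with 48.1 to 58.3 RPKM in mLN-SPF and 9.76 to 18.1 in pLN-SPF (46.1 to 60.9 and 14.3 to 17.5 in GF mice). The part of these cell types in the node differences that follow was not tested, and fewer cells of a type cannot be told apart from less accessibility per cell.

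The sequences below belong to the collagen peaks on which the results turn, each taken from the RefSeq copy of GRCm38 (C57BL/6J, not BALB/c), plus strand, 5′ to 3′. They are the 3 peaks whose SPF call was kept whichever library was left out (Col6a1, Col14a1 and Col15a1), an intergenic Col12a1 peak kept in the same way in GF mice (the exon peaks of Col12a1 and Col15a1, also kept there, are not shown), the Col1a2 peak with a repeated AP-1 match, and the neighbouring peaks at Col6a6 and Col4a1 that differed in opposite directions. Capitals mark matches to a motif searched on both strands.
Col6a1, past the gene's end, chr10:76704479-76704624: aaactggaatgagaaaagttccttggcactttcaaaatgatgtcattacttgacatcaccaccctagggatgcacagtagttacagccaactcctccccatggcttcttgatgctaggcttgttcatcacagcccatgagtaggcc
Col14a1, intron, chr15:55378418-55378622: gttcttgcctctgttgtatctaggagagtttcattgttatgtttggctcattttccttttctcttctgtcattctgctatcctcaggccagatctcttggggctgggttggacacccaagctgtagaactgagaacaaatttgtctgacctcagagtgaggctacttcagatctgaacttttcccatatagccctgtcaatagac
Col15a1, intron, chr4:47227830-47228102: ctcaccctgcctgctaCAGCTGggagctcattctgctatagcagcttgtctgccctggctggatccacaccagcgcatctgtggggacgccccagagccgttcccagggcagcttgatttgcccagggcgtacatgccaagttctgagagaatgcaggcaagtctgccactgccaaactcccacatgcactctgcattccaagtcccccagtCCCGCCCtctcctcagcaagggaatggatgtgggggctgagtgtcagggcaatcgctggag
Col12a1, intergenic, central bases, chr9:79253257-79253556: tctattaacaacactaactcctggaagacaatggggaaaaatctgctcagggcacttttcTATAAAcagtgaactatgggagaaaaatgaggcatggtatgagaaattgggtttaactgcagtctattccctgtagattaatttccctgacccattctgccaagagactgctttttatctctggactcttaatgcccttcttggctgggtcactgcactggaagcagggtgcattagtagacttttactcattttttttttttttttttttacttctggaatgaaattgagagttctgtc
Col1a2, intergenic, chr6:4350082-4350294: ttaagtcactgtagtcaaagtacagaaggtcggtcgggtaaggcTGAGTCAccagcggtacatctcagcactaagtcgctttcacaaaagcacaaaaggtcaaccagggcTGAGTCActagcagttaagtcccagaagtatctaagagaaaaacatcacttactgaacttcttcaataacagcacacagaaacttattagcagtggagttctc
Col6a6, lower in mLN, chr9:105870190-105870417: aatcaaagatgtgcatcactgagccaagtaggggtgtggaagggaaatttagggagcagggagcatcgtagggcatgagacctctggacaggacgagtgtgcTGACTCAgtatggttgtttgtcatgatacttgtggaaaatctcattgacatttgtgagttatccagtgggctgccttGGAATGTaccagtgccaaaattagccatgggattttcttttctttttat
Col6a6, higher in mLN, chr9:105871808-105871940: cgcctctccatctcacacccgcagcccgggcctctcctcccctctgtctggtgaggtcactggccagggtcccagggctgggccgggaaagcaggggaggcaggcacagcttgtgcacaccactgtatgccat
Col4a1, lower in mLN, central bases, chr8:11279318-11279617: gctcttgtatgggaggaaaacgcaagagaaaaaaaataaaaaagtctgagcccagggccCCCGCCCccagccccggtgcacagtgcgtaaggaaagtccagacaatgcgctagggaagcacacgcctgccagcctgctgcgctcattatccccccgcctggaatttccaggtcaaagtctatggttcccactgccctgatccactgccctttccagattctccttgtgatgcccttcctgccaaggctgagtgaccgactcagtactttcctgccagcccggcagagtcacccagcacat
Col4a1, higher in mLN, central bases, chr8:11280776-11281075: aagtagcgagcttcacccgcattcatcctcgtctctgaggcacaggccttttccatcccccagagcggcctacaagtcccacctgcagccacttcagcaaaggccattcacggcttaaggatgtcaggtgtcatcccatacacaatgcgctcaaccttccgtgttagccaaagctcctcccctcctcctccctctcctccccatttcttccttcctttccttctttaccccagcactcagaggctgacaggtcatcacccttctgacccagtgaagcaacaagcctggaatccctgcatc

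In capitals, the Col1a2 sequence shows 2 AP-1 matches, and the Col6a6 peak that was lower in mLN shows an AP-1 and a TEAD match. The Col15a1 sequence holds an E-box and a GC box, the lower Col4a1 sequence a GC box, and the Col12a1 sequence a TATA match. No searched motif occurs in the Col14a1, Col6a1, higher Col6a6 or higher Col4a1 sequence. In windows of 300 bases centred on the collagen peaks, AP-1 (TGANTCA) was found in 66 of 210 (31.4%), against 18.3% of all peaks on assembled chromosomes. At peaks narrower than 300 bases the window takes in bases beside the peak, so that a match can lie outside it. Outside promoters the shares were 34.6% of 179 collagen peaks and 24.1% of all peaks. TEAD (GGAATGT) was found in 24 collagen peaks (11.4%, against 5.62% of all), and outside promoters in 12.8% against 7.0%. The E-box CAGCTG was found in 23.3% against 21.9%, TATA letters, TATAAA, in 10.0% against 10.5% and the GC box (GGGCGGG) in 11.9% against 17.6%. RUNX (TGTGGTTT) was found in 2 collagen peaks, and ETS (CCGGAAGT), the palindromic NF-I motif, C/EBP (TTGCGCAA) and NKX2 (CCACTTAA) in 1 each. No motif's letters contain those of another. These are matches of letters, given as a description, and no test was made on them.

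Of the 210 collagen peaks, 97 lay in introns, 75 between genes, 31 in promoters (within 1 kb of a TSS), 6 in coding exons and 1 in a UTR. Fibrillar genes had 65 peaks, FACIT genes 43, beaded filament genes 35, basement membrane genes 24, multiplexins 19, transmembrane genes 16, hexagonal network genes 5 and the others 3. Col4a1, which encodes a chain of the main basement membrane collagen, had 20 peaks, Col14a1 16, Col3a1 15 and Col6a6 14. The median distance to the TSS was 23.8 kb, and 29 peaks lay over 100 kb away, so that the gene named is the nearest one and not a shown target. The median over collagen peaks of the mean level was 27.7 RPKM, against 27.0 over all peaks. One peak, chosen after its values were seen, stood apart at a mean of 1860.8 RPKM, 24.9 kb from Col19a1, a FACIT gene. Of its 1111 overlapping 25-base words 96.2% also occur in the mitochondrial genome, and 0 of the other 209 collagen peaks shared such a word, so this level was not read as accessibility of Col19a1.

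The peaks over collagen start sites, 25 peaks at 24 genes, carried signal in every library. Col1a2, a chain of the fibril-forming type I collagen that fibroblasts make in bulk, had the highest mean at 70.6 RPKM (56.7 to 85.3 over the 11 libraries). A peak 1.38 kb upstream of it, singled out after its values were seen, was higher still, with a mean of 96.6 RPKM (62.2 to 134). Col5a3 and Col5a1, chains of the type V collagen that nucleates fibrils, had means of 54.9 and 48.8 RPKM, and Col1a1, the partner chain of Col1a2, had 53.2 RPKM. Among beaded filament genes the start-site means were 46.7 RPKM at Col6a2, 45.3 at Col6a1, 32 at Col6a5, 23.8 at Col6a3 and 22.4 at Col6a6. The shared start region of Col4a1 and Col4a2 had a mean of 24.4 RPKM (19.5 to 30.0), and that of Col4a3 and Col4a4 had 11 RPKM (3.90 to 22.4). Fibrillar Col3a1, the type III chain of reticular fibres, had 35 RPKM (16.7 to 45.2), Col27a1 47.4, Col5a2 27.7 and Col11a1 18.9. The ranges of most neighbours in this order overlapped, as the plot of start-site levels shows.

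**Figure D1:**
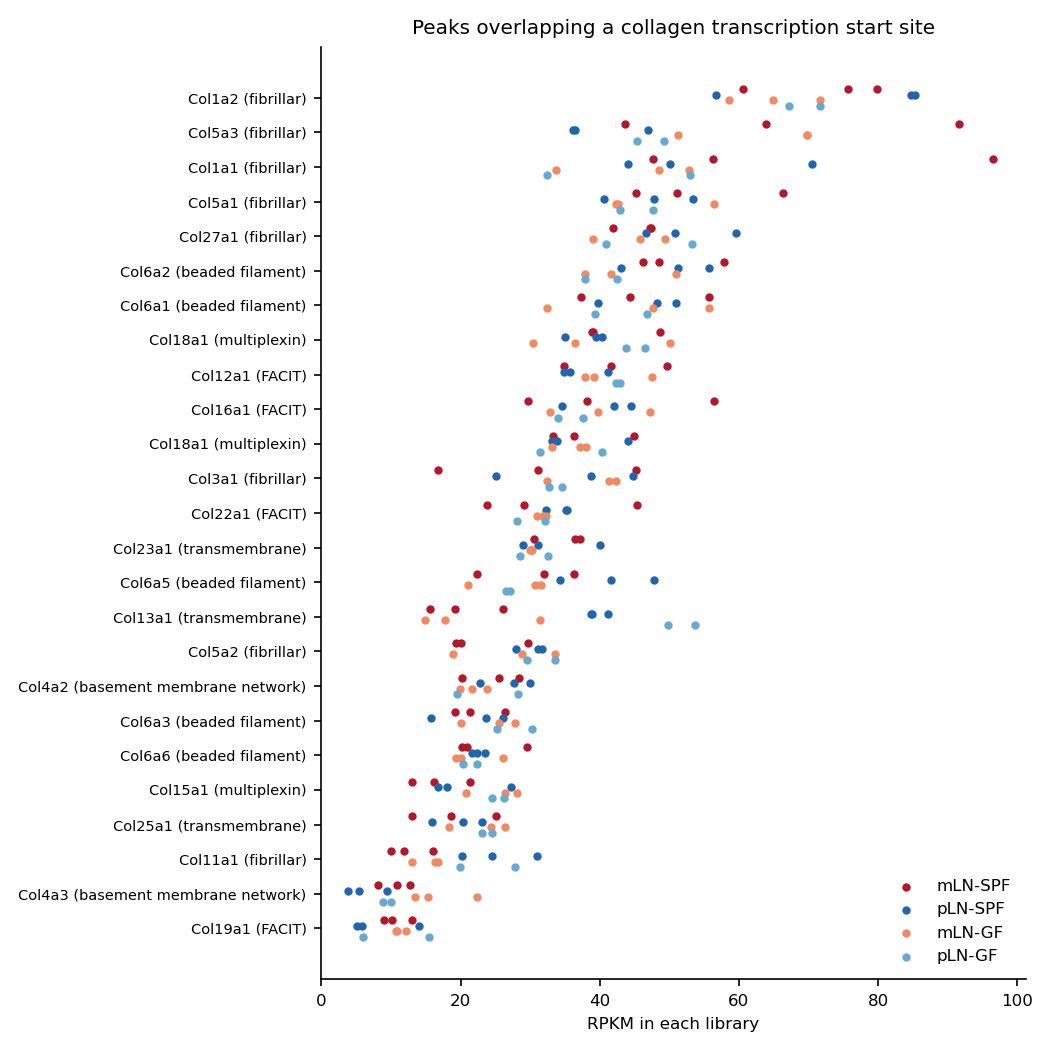
RPKM in each library (x axis) at the 25 peaks that overlap a collagen TSS, ordered by mean; each point is 1 library, coloured by group. Col1a2 lies highest with 56.7 to 85.3 RPKM, and at Col13a1 the mLN points (14.9 to 31.4) lie below the pLN points (38.8 to 53.6) in both housings.

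Genes whose start site carried no peak were described by their strongest one, 21.3 RPKM (8.77 to 36.5) at the fibrillar gene Col24a1. Col2a1, the cartilage fibrillar collagen, had 1 peak, an intronic one of 61.0 RPKM (42.2 to 74.8). Col8a1 and Col8a2, short chain collagens, reached 33.1 and 29.5 RPKM, and Col17a1, a transmembrane collagen of epithelial hemidesmosomes, had 1 peak of 9.65 RPKM.

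Did collagen accessibility differ between nodes in SPF mice? A peak was called a differentially accessible region (DAR) when limma, fitted to log2(RPKM + 1) of all peaks, gave a Benjamini-Hochberg adjusted p under 0.05 and at least a 2-fold change. Between mLN-SPF and pLN-SPF 14 of 210 collagen peaks (6.67%) were DARs, against 10.8% of all peaks. Of these, 7 were higher in mLN (6.49% of all peaks were) and 7 higher in pLN (4.27% of all peaks). They lay at 10 genes. By the adjusted p alone, 31 collagen peaks (14.8%) passed, against 14.7% of all peaks. Of these 31, 10 were higher in mLN and 21 in pLN, and in GF mice 15 and 16 of 31. This split was not counted over all peaks. The median log2 fold change over collagen peaks was -0.05 and that over all peaks 0.00. The count moved with single libraries: leaving out pLN-SPF replicate 1 or replicate 2 left 5 (2.38%, against 6.3% and 5.4% of all peaks), leaving out mLN-SPF replicate 3 left 7 (3.33% against 6.0%), and leaving out mLN-SPF replicate 2 gave 26 (12.4% against 14.0%). Calls over all peaks moved in the same direction each time. The 3 DARs at Col6a1, Col14a1 and Col15a1 kept their call with every library left out in turn.

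None of the 25 start-site peaks was a DAR in SPF mice. As only 0.961% of start-site peaks of all genes were, this is no result about collagen genes. By the adjusted p alone 2 of the 25 passed (8.0%), against 2.67% of start-site peaks of all genes. The median half-width of their 95% intervals was 0.49 on the log2 scale. These were Col13a1, described with the GF results, and Col11a1. At Col11a1, a minor fibrillar chain, the log2 difference was -0.94 (SE 0.28, limma adjusted p = 0.0379). Both were called without mLN-SPF replicate 2, at -1.15 for Col13a1 and -1.11 for Col11a1 (adjusted p = 0.0146 and 0.0234), and Col11a1 also without pLN-SPF replicate 3 (-1.08, 0.0342). For Col1a1 it was 0.24 (95% interval -0.35 to 0.83) and for Col1a2 -0.05 (-0.43 to 0.33). Outside promoters 13 of 179 collagen peaks were DARs (7.26%), against 14.8% of all peaks there.

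Beaded filament genes held 5 of the 14 DARs, at 14.3% of their 35 peaks, against 10.8% of all peaks. Of these 5, 4 were higher and 1 lower in mLN-SPF, and 4 lay at 1 gene, Col6a6. FACIT genes held 3 of 43 (1 higher and 2 lower), fibrillar genes 2 of 65 (1 and 1), and basement membrane, multiplexin and transmembrane genes 1 each, all lower in mLN. The remaining DAR, higher in mLN, was at Col28a1, and hexagonal network genes had none. In GF mice DARs made up 14.3% of beaded filament, 14% of FACIT and 25% of transmembrane peaks, against 13.2% of all peaks. The GF shares were 6.15% for fibrillar, 8.33% for basement membrane, 10.5% for multiplexin and 0% for hexagonal network genes. The class shares rest on few peaks and were not tested against each other.

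**Figure D2:**
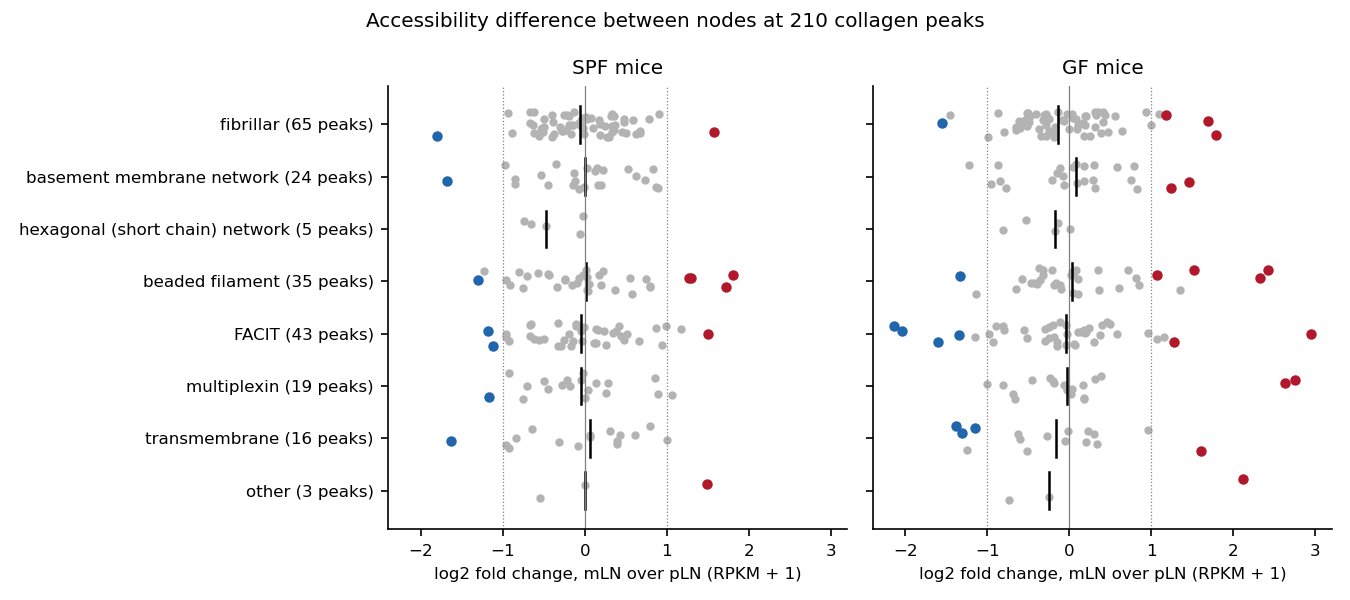
Log2 fold change of mLN over pLN (x axis, on RPKM + 1) for the 210 collagen peaks by class, in SPF and in GF mice; grey points are not called, red points are DARs higher in mLN, blue points DARs higher in pLN, black bars class medians and dotted lines 2-fold. Called peaks stand on both sides, from -1.81 to 1.81 in SPF and from -2.14 to 2.95 in GF mice.

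Col6a1 encodes a type VI chain. The peak 4168 bp past its end (chr10:76704479-76704624, printed above) had 50.6, 36.6 and 43.4 RPKM in mLN-SPF and 19.6, 11.6 and 6.72 RPKM in pLN-SPF. All mLN libraries were higher than all pLN libraries. The log2 fold change was 1.81 (SE 0.39, adjusted p = 0.00970), on 3 to 42 reads per library. In GF mice mLN had 19.9, 44.7 and 44.3 RPKM and pLN 7.66 and 3.93 RPKM, a log2 difference of 2.42 (SE 0.44, adjusted p = 0.00273). The start-site peak of Col6a1 differed by -0.03 in SPF mice.

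Col6a6, another type VI chain gene, had 4 DARs in SPF mice among its 14 peaks. An intronic peak at chr9:105754656-105754775 had 43.8, 12.3 and 20.6 RPKM in mLN-SPF and 9.54, 7.97 and 2.72 RPKM in pLN-SPF. The groups did not overlap, but the reads were few, 1 to 27. Its log2 fold change was 1.73 (SE 0.52, adjusted p = 0.0406), and the adjusted p rose to as much as 0.168 without any 1 library of mLN-SPF 1 or 3, pLN-SPF 1, 2 or 3, or mLN-GF 2. A peak in another intron (chr9:105801527-105801869) had 27.8, 23.1 and 37.0 RPKM in mLN-SPF and 11.4, 14.6 and 8.58 RPKM in pLN-SPF. Here too every mLN library was above every pLN library. The log2 fold change was 1.28 (SE 0.30, adjusted p = 0.0142), with the call lost only without mLN-SPF replicate 3 (adjusted p = 0.0633).

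The other pair lay upstream of Col6a6, inside an intron of the neighbouring type VI gene Col6a5, 1390 bp apart. The peak nearer to Col6a6 (chr9:105870190-105870417) had 9.39, 5.65 and 15.5 RPKM in mLN-SPF and 22.2, 23.8 and 28.7 RPKM in pLN-SPF. It was lower in mLN in every library (log2 fold change -1.30, SE 0.36, adjusted p = 0.0298). The next peak (chr9:105871808-105871940) had 27.8, 33.2 and 68.9 RPKM in mLN-SPF and 15.8, 16.8 and 14.7 RPKM in pLN-SPF. It was higher in mLN in every library, by 1.29 (SE 0.40, adjusted p = 0.0466). In GF mice the log2 fold changes were -1.34 (adjusted p = 0.0396) and 1.35 (adjusted p = 0.0588). Both SPF calls were lost without several single libraries, among them mLN-SPF 1 and each pLN-SPF library (and mLN-SPF 2 for the lower peak; mLN-SPF 3 and mLN-GF 1, pLN-GF 1 or pLN-GF 3 for the higher), with adjusted p up to 0.0859 and 0.185. The GF call of the lower peak was lost without any 1 GF library, pLN-SPF 1 or pLN-SPF 2 (adjusted p up to 0.399).

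Col14a1 encodes a FACIT chain found on the surface of collagen fibrils. Its intronic peak at chr15:55378418-55378622 had 52.2, 26 and 32.7 RPKM in mLN-SPF and 12.6, 10.4 and 12.8 RPKM in pLN-SPF. In GF mice it had 39.9, 25.8 and 35.1 RPKM in mLN and 2.73 and 4.20 RPKM in pLN. The mLN libraries lay above the pLN libraries in both housings. The log2 fold change was 1.5 (SE 0.31, adjusted p = 0.00737) in SPF mice and 2.95 (SE 0.34, adjusted p = 0.000280) in GF mice. The pLN-GF values rest on 3 and 6 reads.

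Col12a1, another FACIT gene, went the other way. A peak over a coding exon (chr9:79648275-79649031) had 12.8, 18 and 13.5 RPKM in mLN-SPF and 29.6, 40.7 and 29.4 RPKM in pLN-SPF. In GF mice mLN had 12.9, 17.7 and 12.6 RPKM and pLN 47.1 and 43.2 RPKM. All pLN libraries exceeded all mLN libraries, on 29 to 290 reads. The log2 fold changes were -1.12 (SE 0.24, adjusted p = 0.00954) and -1.60 (SE 0.27, adjusted p = 0.00182) respectively. Without pLN-SPF replicate 2 the SPF call was lost (adjusted p = 0.0604). A second SPF DAR lay 399 kb from the nearest Col12a1 TSS, past the gene's end (chr9:79213452-79213686), with 8.28, 14.1 and 10.5 RPKM in mLN-SPF and 34.9, 28.5 and 16.7 RPKM in pLN-SPF. Its groups did not overlap, and its log2 fold change was -1.18 (SE 0.36, adjusted p = 0.0439). That call was lost without any 1 of mLN-SPF 1 or 3, pLN-SPF 1 or 2, mLN-GF 1, pLN-GF 1 or 3 (adjusted p up to 0.185).

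All 4 Col12a1 peaks called in either housing were higher in pLN. The other 2 were called in GF mice alone. One of them (chr9:79253220-79253593, 359 kb away) had 9.88, 9.56 and 5.77 RPKM in mLN-GF and 36.9 and 42.6 RPKM in pLN-GF, a log2 fold change of -2.14 (SE 0.30, adjusted p = 0.000634). In SPF mice it differed by -0.96 (SE 0.27, adjusted p = 0.0286), just under 2-fold. The start-site peak of Col12a1 differed by 0.16 in SPF and -0.05 in GF mice.

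Col15a1 encodes a multiplexin of basement membrane zones. An intronic peak (chr4:47227830-47228102) had 22.1, 27.6 and 18.1 RPKM in mLN-SPF and 61.9, 62.3 and 34.7 RPKM in pLN-SPF. In GF mice the values were 46.4, 45.0 and 30.9 RPKM in mLN and 66.3 and 62.5 RPKM in pLN. The pLN libraries were higher in both housings. The difference passed as a DAR in SPF mice (log2 fold change -1.16, SE 0.24, adjusted p = 0.00843) and not in GF mice (-0.67, SE 0.27, adjusted p = 0.116), but the difference between the 2 was not past the threshold (interaction -0.50, SE 0.37, adjusted p = 1.00).

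Within Col15a1 other peaks went up in mLN. A peak over a coding exon near the 3' end (chr4:47310877-47311003) had 49.9, 29.4 and 48.1 RPKM in mLN-GF and 2.94 and 9.04 RPKM in pLN-GF. An intronic peak (chr4:47218948-47219057), 8772 bp from the peak that was lower in mLN, had 33.6, 21.2 and 52.3 RPKM in mLN-GF and 1.70 and 10.4 RPKM in pLN-GF. The mLN libraries were above the pLN libraries at both, with log2 fold changes of 2.75 (SE 0.50, adjusted p = 0.00271) and 2.63 (SE 0.51, adjusted p = 0.00387). The pLN-GF counts were 2 and 8 reads at the first and 1 and 8 reads at the second, and the second lost its call without pLN-GF replicate 1 (adjusted p = 0.0574). In SPF mice these peaks differed by 1.06 (adjusted p = 0.126) and 0.85 (adjusted p = 0.227).

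Col4a1 also held DARs in both directions, higher in pLN in SPF mice and higher in mLN in GF mice. A peak 28 bp from an internal Col4a1 TSS (chr8:11279307-11279628) had 20.5, 10.9 and 4.38 RPKM in mLN-SPF and 32.6, 27.7 and 45.7 RPKM in pLN-SPF. The groups did not overlap, and the log2 fold change was -1.68 (SE 0.46, adjusted p = 0.0269); without mLN-SPF 3 or pLN-SPF 1, 2 or 3 the call was lost (adjusted p up to 0.0974). The next peak, 1001 bp further towards the gene's 5' end (chr8:11280630-11281220), had 48.7, 36.1 and 32.2 RPKM in mLN-SPF and 17.4, 17.3 and 27.1 RPKM in pLN-SPF. All its mLN values were the higher ones. It differed by 0.90 in SPF mice (SE 0.23, adjusted p = 0.0218), under 2-fold, and by 1.24 in GF mice (SE 0.26, adjusted p = 0.00649; 0.0931 without pLN-GF 1). The shared start region of Col4a1 and Col4a2 differed by -0.12 and -0.11.

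Among fibrillar genes, Col1a2 had a distal DAR 155 kb upstream (chr6:4350082-4350294) with 30.1, 34.6 and 61.2 RPKM in mLN-SPF and 10.3, 9.97 and 19.9 RPKM in pLN-SPF. Every mLN library was higher, by 1.58 on the log2 scale (SE 0.42, adjusted p = 0.0240), and the GF difference was 1.79 (SE 0.47, adjusted p = 0.0202). The SPF call was lost without mLN-SPF 3, pLN-SPF 1 or pLN-SPF 2 (adjusted p up to 0.102), and the GF call without mLN-GF 3 or pLN-GF 3 (up to 0.210). Col3a1 had one 195 kb upstream (chr1:45116840-45117030), with 4.07, 19.3 and 5.54 RPKM in mLN-SPF and 27.0, 21.7 and 44.5 RPKM in pLN-SPF. It was lower in mLN in every library (-1.81, SE 0.51, adjusted p = 0.0299), on 3 to 62 reads, and lost its call without any 1 SPF library other than mLN-SPF 2 (adjusted p up to 0.115). In GF mice it differed by -0.80 (SE 0.57, adjusted p = 0.386), and the groups overlapped.

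Col25a1, a transmembrane collagen first known from brain plaques, had an intronic DAR (chr3:130290060-130290502) with 7.47, 16.2 and 5.57 RPKM in mLN-SPF and 28.4, 37.2 and 24.3 RPKM in pLN-SPF. All pLN libraries were higher. The log2 fold changes were -1.63 in SPF (SE 0.40, adjusted p = 0.0162) and -1.38 in GF mice (SE 0.44, adjusted p = 0.0496). The SPF call was lost without mLN-SPF 1 or 3 or pLN-SPF 1 or 2 (adjusted p up to 0.0744), and the GF call without 8 of the 11 libraries, all but mLN-GF 2 and mLN-SPF 2 and 3 (up to 0.409). Col28a1, a type VI-related chain gene placed in no main class, had an intronic DAR (chr6:8172071-8172542) with 28.9, 30.8 and 62.0 RPKM in mLN-SPF and 10.9, 15.8 and 12.5 RPKM in pLN-SPF. All mLN libraries were higher. It differed by 1.49 in SPF (SE 0.39, adjusted p = 0.0212) and 2.12 in GF mice (SE 0.43, adjusted p = 0.00538), and the SPF call was lost without mLN-SPF 3 or pLN-SPF 1 (adjusted p up to 0.0963), the GF call without pLN-GF 3 (0.0884).

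**Figure D3:**
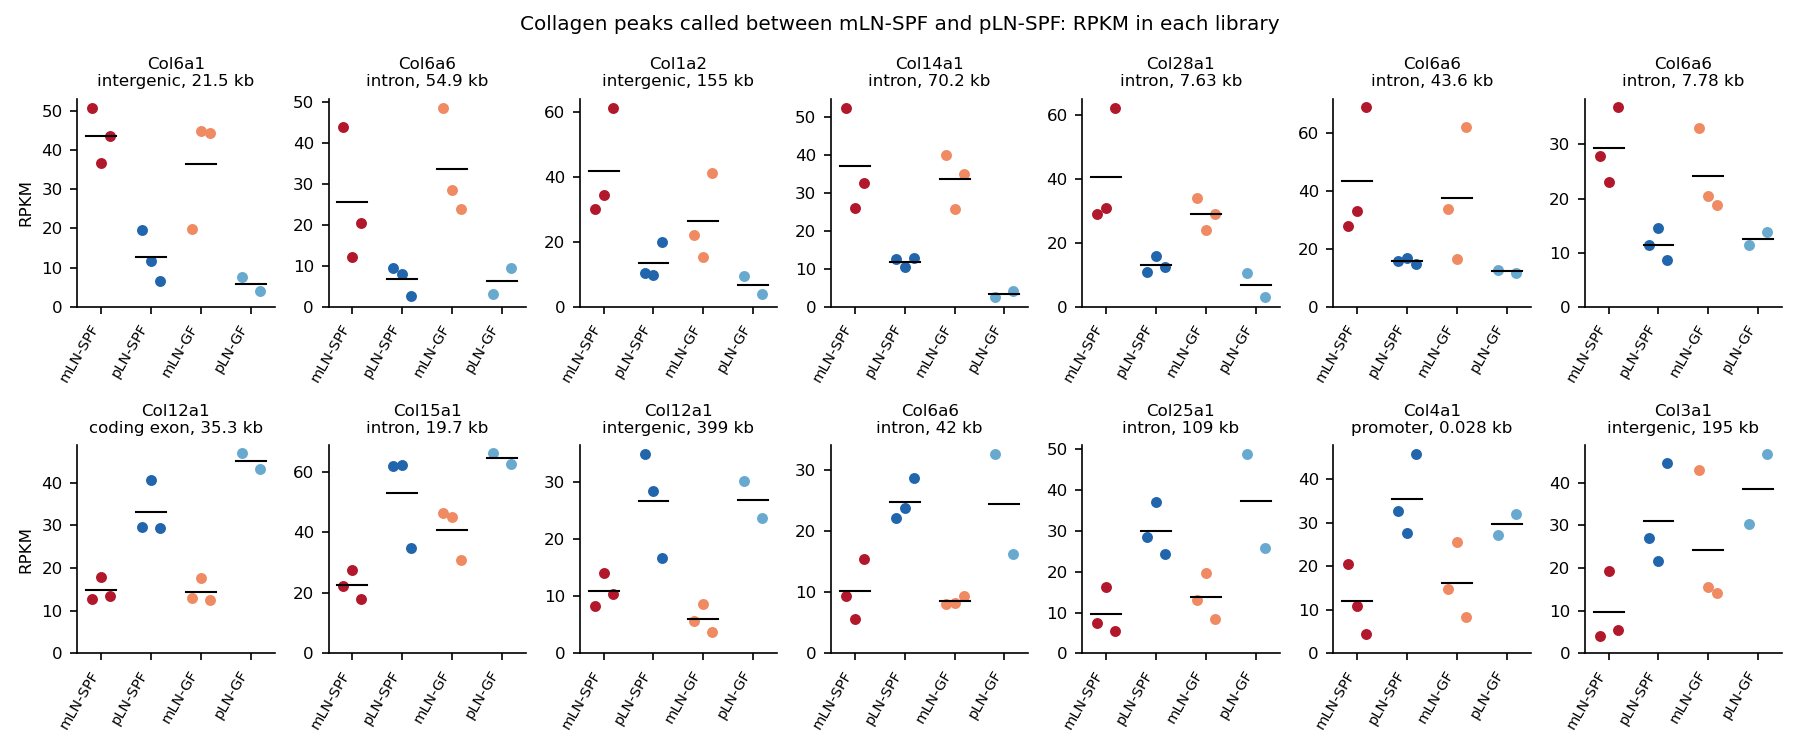
RPKM (y axis) in each library of the 4 groups at the 14 collagen peaks called between mLN-SPF and pLN-SPF, with the peak's position class and its distance from the nearest TSS in each title; points are libraries, bars group means. The upper row is higher in mLN and the lower row in pLN; the SPF groups overlap at none of these 14 selected peaks. Among all 210 collagen peaks they did not overlap at 70 (33.3%), against 33.1% of all peaks.

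Did the same peaks differ in GF mice? Between mLN-GF and pLN-GF 24 of 210 collagen peaks (11.4%) were DARs, against 13.2% of all peaks. Of these 15 were higher in mLN (8.55% of all peaks) and 9 in pLN (4.62%), and they lay at 15 genes. The count was 10 without pLN-GF replicate 1 (4.76%, against 5.46% of all peaks) and 11 without pLN-GF replicate 3 (5.24% against 5.56%), where the lone pLN-GF library was assumed to vary like the other groups. Of the 24, 5 kept their call with every library left out in turn. They were the peaks described above at Col6a1, at Col14a1, over the Col15a1 exon, over the Col12a1 exon and 359 kb from Col12a1. The SPF and GF comparisons share no library, but both use the same estimate of each peak's spread, so their calls are not fully independent. In all, 9 collagen peaks were called in both in the same direction, 64.3% of the 14 SPF DARs and 37.5% of the 24 GF DARs (over all peaks 67.6% and 55.3%). All 14 SPF DARs had the same sign in GF mice, as did 4520 of the 4567 SPF DARs over all peaks. In SPF mice 23 of the 24 GF DARs had the same sign, as did 5525 of the 5588 over all peaks. Over the 210 peaks 79.0% had the same sign in both, against 79.5% of all peaks. Across peaks, which are not independent replicates, Pearson's r was 0.80 and Spearman's rho 0.78 (0.83 and 0.79 over all peaks).

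**Figure D4:**
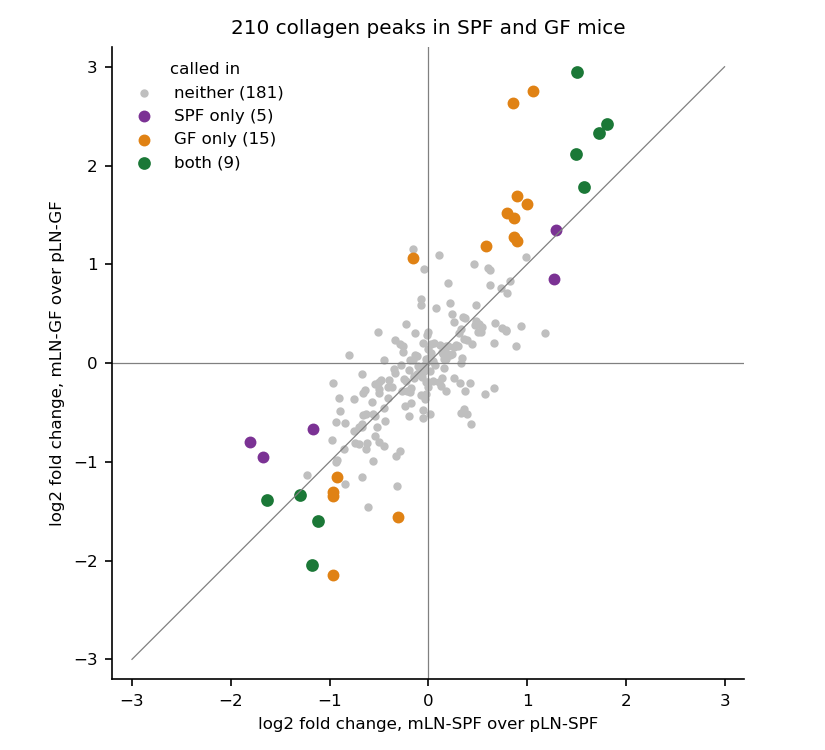
Log2 fold change of mLN over pLN in SPF mice (x axis) and in GF mice (y axis) at the 210 collagen peaks; colours give where a peak was called and the oblique line marks equality. Of the peaks 9 were called in both, 5 in SPF only, 15 in GF only and 181 in neither.

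The 15 peaks called in GF mice alone lay at 11 genes, with 10 higher in mLN and 5 in pLN. Besides those at Col4a1, Col12a1 and Col15a1, the higher ones were at Col6a3 (2 peaks), Col3a1, Col5a1, Col14a1 and Col23a1, with log2 fold changes of 1.07 to 1.69. The Col6a3 peak at 1.07 (chr1:90849943-90850120) was the one with the opposite sign in SPF mice, -0.16, where the groups overlapped. The lower ones included Col24a1, a fibrillar chain gene (-1.56), a second Col25a1 intronic peak (-1.15) and Col13a1. Not described above were a Col4a1 peak (chr8:11292743-11292892), higher in mLN by 1.46, and a Col12a1 peak (chr9:79605847-79606021), which differed by -1.35. Both calls were lost without pLN-GF 1 (1.37 and -1.21). The Col12a1 call was also lost without pLN-GF 3 (-1.49) or mLN-GF 3 (-0.997, limma adjusted p = 0.0681). Each of the 8 peaks at Col6a3, Col3a1, Col5a1, Col14a1, Col23a1, Col24a1 and Col25a1 lost its call without pLN-GF 1 or pLN-GF 3 or both, and some without mLN-GF 1, 2 or 3 or a pLN-SPF library (adjusted p up to 0.276).

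Col13a1, a transmembrane collagen of cell-matrix junctions, was the only collagen gene with a start-site DAR (1 of 25, 4.00%, against 1.09% of all start-site peaks in GF mice). That peak (chr10:61865852-61866550) had 17.7, 31.4 and 14.9 RPKM in mLN-GF and 53.6 and 49.9 RPKM in pLN-GF. In SPF mice mLN had 19.2, 26.1 and 15.6 RPKM and pLN 38.9, 41.2 and 38.8 RPKM. The pLN libraries were higher in both housings, and the mLN libraries numbered 2 were the highest of their groups. The log2 fold change was -1.31 in GF (SE 0.29, adjusted p = 0.00894) and -0.96 in SPF mice (SE 0.26, adjusted p = 0.0265), the latter just under 2-fold. The GF call was lost without pLN-GF replicate 1 or 3 (adjusted p up to 0.0871).

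**Figure D5:**
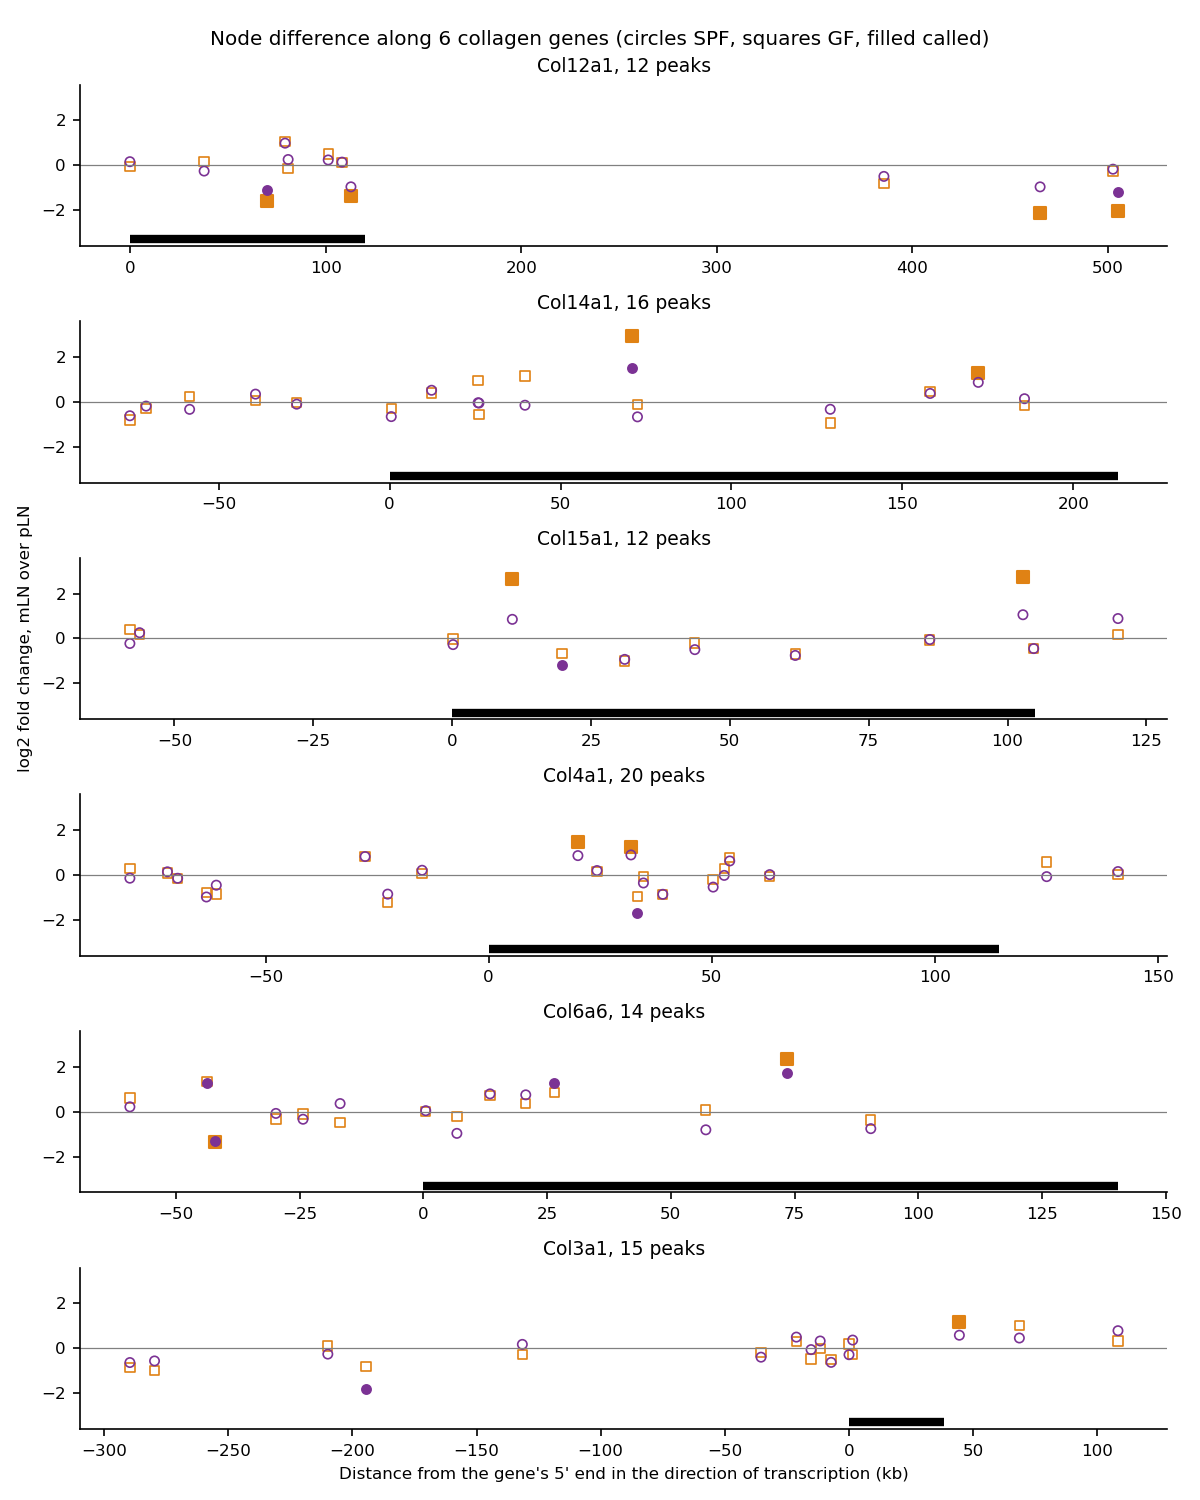
Log2 fold change of mLN over pLN (y axis) of each peak against its distance from the gene's 5' end in kb, in the direction of transcription, at 6 collagen genes; circles are SPF, squares GF, filled symbols DARs and the black bar the gene. At Col12a1 the filled symbols lie below 0, at Col14a1 above 0, and at Col15a1, Col4a1, Col6a6 and Col3a1 on both sides. Only at Col6a6 do they lie on both sides within the same housing.

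Counted by gene, 15 of the 36 genes with peaks (41.7%) had a DAR in at least 1 housing, against 28.1% of all genes with peaks. Collagen genes had more peaks each, a mean of 5.83 against 2.89, and a gene with more peaks has more chances of a call. At 7 genes (Col1a2, Col5a1, Col6a1, Col6a3, Col14a1, Col23a1 and Col28a1) these were higher in mLN. At 4 genes (Col12a1, Col13a1, Col24a1 and Col25a1) they were higher in pLN, and at Col3a1, Col4a1, Col6a6 and Col15a1 they went in both directions. Only at Col6a6 did both directions occur within the same housing. At Col3a1, Col4a1 and Col15a1 the calls higher in pLN came from SPF and those higher in mLN from GF mice. The other 21 genes, Col1a1 and Col18a1 among them, had none. The 29 called peaks had a median width of 247 bp, against 486 bp for the other 181, and 17 of them (29 of the others) had under 10 reads in at least 1 library.

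Housing made no called difference. Between mLN-SPF and mLN-GF 0 of 210 collagen peaks were DARs, against 0.00236% of all peaks, with a smallest adjusted p of 0.421 in limma. By unadjusted p under 0.05, 15 peaks (7.14%) passed, against 8.11% of all peaks, and voom on the recovered reads also called 0. Between pLN-SPF and pLN-GF 0 peaks were DARs, against 0.00707% of all (0.00471% higher in pLN-GF), and 14 (6.67%, against 6.21%) passed by unadjusted p, again with 0 called by voom. The smallest adjusted p, 0.251, was that of the Col14a1 intronic peak, at which pLN-SPF had 12.6, 10.4 and 12.8 RPKM and pLN-GF 2.73 and 4.20 RPKM (log2 difference 1.54, SE 0.34). The interaction of node and housing was past the threshold at 0 peaks (0% of all peaks), with 8 collagen peaks under 0.05 by unadjusted p and 0 by voom. The median half-width of the 95% intervals, not adjusted for the number of peaks, was 0.59 on the log2 scale for mLN and 0.66 for pLN. Small changes with housing were thus not detectable here, and larger ones, such as the 1.54 at the Col14a1 peak, could also go uncalled.

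The genes that modify, cut, cross-link, bind and degrade collagen were counted in the same way, at 188 peaks of 44 of the 49 genes listed. In SPF mice 15 were higher and 10 lower in mLN (13.3%, against 10.8% of all peaks), and in GF mice 16 and 14 (16%, against 13.2%). None was called between SPF and GF. The proteases of propeptide cleavage trim procollagen ends so that fibrils can form. Propeptide cleavage genes held 9 of the 25 SPF DARs, 6 higher and 3 lower in mLN among 40 peaks (22.5%, against 10.8% of all peaks). An intronic peak of Tll2, a tolloid-like protease, had 32.7 ± 6.51 RPKM (SD, n = 3) in mLN-SPF and 4.94 ± 1.58 in pLN-SPF, a log2 fold change of 2.52 (SE 0.33, limma adjusted p = 0.00154). Intronic peaks of Bmp1, the main C-propeptide protease, and Adamts2, the N-propeptide protease, were higher in mLN by 1.70 and 1.76 (adjusted p = 0.00354 and 0.00874). The 3 lower DARs, named after their values were seen, were a pair of peaks far from Tll1, another tolloid-like protease, and another Adamts2 intronic peak. The Tll1 peaks differed by -3.2 (SE 0.76, adjusted p = 0.0148) and -1.55 (SE 0.34, adjusted p = 0.0109), and the Adamts2 peak by -1.35 (SE 0.34, adjusted p = 0.02). In GF mice these 3 differed by -3.53, -1.79 and -1.25.

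Chain modification and folding genes had 4 DARs higher and 4 lower in mLN-SPF among 63 peaks (12.7%, against 10.8% of all peaks). The higher ones were all nearest to 1 gene, Plod2, and the lower ones lay at 4 genes. A peak 267 kb from Plod2, a lysyl hydroxylase, was higher by 1.44 (61.3 ± 16.1 against 21.8 ± 5.73 RPKM, SD, n = 3; limma adjusted p = 0.00447), and an intronic peak of P3h2, a prolyl hydroxylase, differed by -1.17 (adjusted p = 0.0135), at 10.4 ± 0.816 against 24.6 ± 1.98 RPKM, and lost its call without pLN-SPF 2 (0.0649). Crosslinking genes had 0 DARs among 12 peaks by limma with the 2-fold threshold. As 10.8% of all peaks were DARs, 0 of 12 is no result about these genes. Peaks at Loxl1 (0.99), Loxl4 (0.71) and the start-site peak of Lox (0.57), the lysyl oxidase, passed the limma adjusted p with smaller changes (0.0124, 0.0212 and 0.0463). Loxl1 was called without mLN-SPF 2, pLN-SPF 1 or pLN-SPF 3, at 1.03 to 1.10. Of the small proteoglycans on fibrils, a promoter peak of Lum (lumican) was higher in mLN by 1.28 (adjusted p = 0.0164; 0.0525 without pLN-SPF 1). The peaks with the smallest adjusted p at Dcn (decorin) and Bgn (biglycan) differed by 0.84 (0.0686) and -0.33 (0.538), the latter 0.030 without mLN-SPF 2. Of the receptors, a distal peak of Itga1 was lower (-1.26, adjusted p = 0.00587) and one of Itga11 higher in mLN (1.29, adjusted p = 0.00895), both subunits of collagen-binding integrins. An intronic peak of Ddr2, a receptor kinase for fibrillar collagen, differed by -0.84 (adjusted p = 0.0283), short of 2-fold, and by -1.03 without mLN-SPF 2, when it was called. Among the proteases, a peak 42.8 kb from Mmp2, a gelatinase, was higher by 1.00 (adjusted p = 0.0330), a call lost without any 1 of mLN-SPF 1, 2 or 3 or pLN-SPF 1 or 2 (adjusted p up to 0.106), whereas peaks near Mmp8 and Mmp14 differed by -0.68 and -0.56 (adjusted p = 0.0402 and 0.0456).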

How the data were processed

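Reads were aligned by the authors to GRCm38 with STAR 2.5.3a (unique hits) and stripped of duplicates with Picard. The authors then merged the broad MACS2 peaks of single libraries, dropped blacklisted regions and scaled the counts with DESeq2 1.22. Whether cut positions were offset for the transposase is not given in the sources used here. The deposited table holds RPKM per merged peak. It also holds fold changes and p-values of the authors' own comparisons and gene names, none of which were used. Its 42434 entries held 10 repeats, which left 42424 peaks. Reads were recovered from RPKM and peak width (100% of values within 0.02 of a whole read). The median peak held 37 reads in the shallowest and 136 in the deepest library, so that levels of weak peaks are imprecise.

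In the column labelled pLN-GF replicate 2, all 42434 values were the average of the 5 remaining pLN columns. This 1 column was left out. The nearest protein-coding TSS in GENCODE vM21 gave each peak its gene, and sequences were read from the RefSeq copy of GRCm38. Log2(RPKM + 1) of all peaks was fitted with limma 3.58.1 in R 4.3.3 (4 group means, variances moderated along a trend with the mean, 7 residual degrees of freedom), two-sided, with Benjamini-Hochberg adjustment over all peaks. Fold changes are on this scale, which understates those of weak peaks. The code was tested on simulated data. Motifs and figures used Python 3.11.15.

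The collagen genes, classes, pathway lists and motifs were chosen with earlier results of these data known. Named were all collagen DARs (library values for up to 12 SPF DARs of each direction), the start-site or otherwise strongest peak of the fibrillar, basement membrane and beaded filament genes, and per pathway role up to 3 genes with the smallest adjusted p. Peaks called only in GF mice and the Col8a1, Col8a2 and Col17a1 peaks were given values after these had been seen. Alternatives were pseudocounts of 0.5 and 4, a filter at 5 RPKM, quantile normalization, median centring, a replicate block, leaving out libraries, fitting only the groups compared, a limit of 100 kb, TSSs of every transcript and voom.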

Additional observations from a re-analysis of the deposited data

How the results depend on the processing

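Of the 14 SPF and 24 GF calls at collagen peaks, 3 and 5 were kept with every library left out in turn. Leaving out 1 library gave 5 to 26 SPF calls (2.38% to 12.4%, against 5.4% to 14.0% of all peaks) and 10 to 29 GF calls (4.76% to 13.8%, against 5.46% to 14.5%). Without both mLN libraries numbered 2 there were 26 SPF calls (10 higher and 16 lower in mLN; 12.4% against 13.8% of all peaks) and 32 GF calls (15.2% against 15.3%). Voom on the recovered reads, chosen after seeing the data, called 22 (11 and 11, 10.5% against 12.7%) and 26 (12.4% against 15.8%). TSSs of every transcript, also chosen then, gave 20 and 31. These are not comparable with the other counts, since the set of peaks assigned to collagen genes can differ. The cause of these shifts was not tested. Under the pseudocounts, filter, quantile normalization, median centring, the fit of the groups compared and the 100 kb limit the counts were 10 to 14 in SPF and 19 to 26 in GF mice. Leaving aside the 100 kb limit, which changes the set of peaks, the SPF shares were 5.71% to 6.67%, against 8.81% to 11.0% of all peaks. The GF shares were then 11.4% to 12.4%, against 12.8% to 14.8%. With a replicate block there were 15 (8 and 7; 7.14% against 11.9%) and 28 (17 and 11; 13.3% against 17.3%), and it ended the GF calls of the Col24a1 peak (adjusted p = 0.0598) and the lower Col6a6 peak (0.0573). The main fit did not pair libraries by number. Deviations from the group means correlated over 0.1 in 5 of 15 same-numbered pairs (r from -0.152 to 0.271) and in 5 of 30 other pairs (-0.303 to 0.21). The 5 same-numbered ones were all 3 pairs numbered 2 (0.196 to 0.271) and 2 pairs numbered 3 (0.157 and 0.229), none of them with pLN-GF. Pairs with pLN-GF say little, since the deviations of its 2 libraries mirror each other. Whether libraries of the same number share a batch or are paired was not tested. Housing and interaction counts were 0 in each alternative run. Single called peaks, over 760 refits, gave 639 unchanged and 121 lost calls and 0 changes of sign. Besides left-out libraries and the block, losses were at Col6a6 (chr9:105754656-105754775 under quantile normalization, the groups compared and voom; chr9:105871808-105871940 under quantile normalization and voom), Col12a1 (chr9:79213452-79213686, quantile normalization and the groups compared; the exon peak with a pseudocount of 4), Col6a3, Col5a1, Col24a1 and Col25a1. Over 400 refits of the named pathway peaks and the start-site peaks of Col13a1 and Col11a1, 13 calls were lost, 14 were gained, and the uncalled Bgn peak (-0.33) changed sign to 0.030 without mLN-SPF 2, alone or with mLN-GF 2, and ranged from -0.51 to 0.030 with 1 library left out. The planned count models on recovered reads were not run. As to depth, 17 of the 29 called peaks had under 10 reads in a library.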

Other observations

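Apart from the start-site peak of Col13a1, the peaks called in either housing overlapped no TSS. The median GC content of the centred windows of 300 bases was 48.0% at the 29 called peaks and 49.7% at all collagen peaks. AP-1 letters were found in 9 of the 29 (31.0%), 6 of 17 higher and 3 of 12 lower in mLN (35.3% and 25.0%, against 34.8% and 25.3% of all DARs of these directions). The E-box was found in 6 of the 17 and 2 of the 12 (23.6% and 24.3% of all DARs), and TATA in 0 of the 17 and 3 of the 12 (13.0% and 15.4% of all DARs). The called peaks had a median width of 247 bp, so these windows often reached past the peak and a match can lie outside it. These counts are descriptions with no test.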
